A study of Mus musculus with 43 samples.

Results

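The citrate cycle, pyruvate and acetate enzymes are described here by their messenger RNA in dissected proximal tubules of female mice. The 37 genes were chosen by name from a list of these enzymes, out of 54532 genes in the authors' expression table, and each symbol matched 1 row. All 37 reached 1 TPM, a level that corrects for transcript length and for the total of the library, in at least 1 segment, so none was lost to the filter that left 16053 genes for comparison.

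The tubule segments S1, S2 and S3 were dissected by hand from female C57BL/6 mice aged 6 to 8 weeks, with 2 to 5 tubules in each library and no treatment or engineered allele named. S1 is given by 6 libraries, S2 by 6 and S3 by 7, pooled by the authors into 1 TPM value per gene and segment. Read as animals, which the labels do not state, the title numbers give 2 animals for S1, 3 for S2 and 4 for S3; S1 and S2 share none. There is no replicate check on any difference, the depth behind each value is unknown, and no p-value is given. A gene is called higher or lower when its difference of log2(TPM + 1) is at least 1, which is 2-fold. In such bulk samples, fewer cells of a type and less RNA per cell cannot be told apart.

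The citrate cycle oxidises the acetyl group of acetyl-CoA in mitochondria and passes the electrons to the respiratory chain. Pyruvate enters mitochondria through a carrier and is turned into acetyl-CoA by the pyruvate dehydrogenase complex, which kinases switch off and phosphatases switch on. Acetate reaches acetyl-CoA directly through acetyl-CoA synthetases. The proximal tubule is rich in mitochondria, burns fatty acids, lactate, glutamine and other fuels, and also makes glucose, for which cycle intermediates leave the mitochondrion.

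Each list of segment markers had its highest sum in the segment of its label, but the S3 markers were also high in S2. The 4 S1 markers (Slc5a2, Slc5a12, Gatm and Slc34a1) summed to 17498 TPM in S1, 2415 TPM in S2 and 18.6 TPM in S3. The 2 S2 markers (Slc22a6 and Slc13a3) summed to 8.2 TPM in S1, 444 TPM in S2 and 2.1 TPM in S3. The 3 S3 markers (Slc7a12, Slc5a1 and Slc22a7) summed to 3.3, 2549 and 4270 TPM. Their sum in S2 was above that of the S2 markers there. A list of 8 proximal tubule markers, which shares genes with these lists, summed to 13305 TPM in S1, 68829.5 TPM in S2 and 99123 TPM in S3. Kap, a member of that list, was alone at 56.5 TPM in S1, 64255 TPM in S2 and 95736 TPM in S3. Other cell types were not absent. The 6 endothelial markers summed to 64.8 TPM in S1, 609 TPM in S2 and 248 TPM in S3, with none at 0. The 7 immune markers summed to 5.3, 77.5 and 54.7 TPM, with Csf1r alone at 46.9 TPM in S3. The 5 stromal markers summed to 1.6, 15.1 and 1.5 TPM, and the 3 podocyte markers, nearly all Podxl, to 1.5, 13.7 and 3.3 TPM. The 3 markers of the thick ascending limb summed to 0.6, 21.4 and 30.2 TPM, which was nearly all Umod in S2 and S3, while Cldn16 was listed at 0 in S1 and S2. Distal convoluted tubule and collecting duct markers summed to at most 3 TPM in any segment. The share of all TPM from mitochondrially encoded genes was 6.50% (S1), 16.0% (S2) and 9.72% (S3). The part of other cells and of this share in the results below was not tested.

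As a group these enzymes were most abundant in S1. The 37 genes summed to 12485 TPM in S1, 6339 TPM in S2 and 6236 TPM in S3, or 1.25%, 0.634% and 0.624% of all TPM. The sum in S1 was 1.97-fold that in S2 and 2.00-fold that in S3, while S2 stood at 1.02-fold S3. Of the 37 genes, 19 differed at least 2-fold between some pair of segments, against 33.3% of all genes compared. By order of level, 21 of the 37 genes stood in the order S1 over S2 over S3 and 10 were lowest in S2. A further 3 stood in the opposite order (Me1, Pdk3 and Acss2), 2 were highest in S2 (Acly and Mpc1) and Pdp1 had a tie. The orders were not counted over all genes compared, so these counts have no share to be set against.

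**Figure D1:**
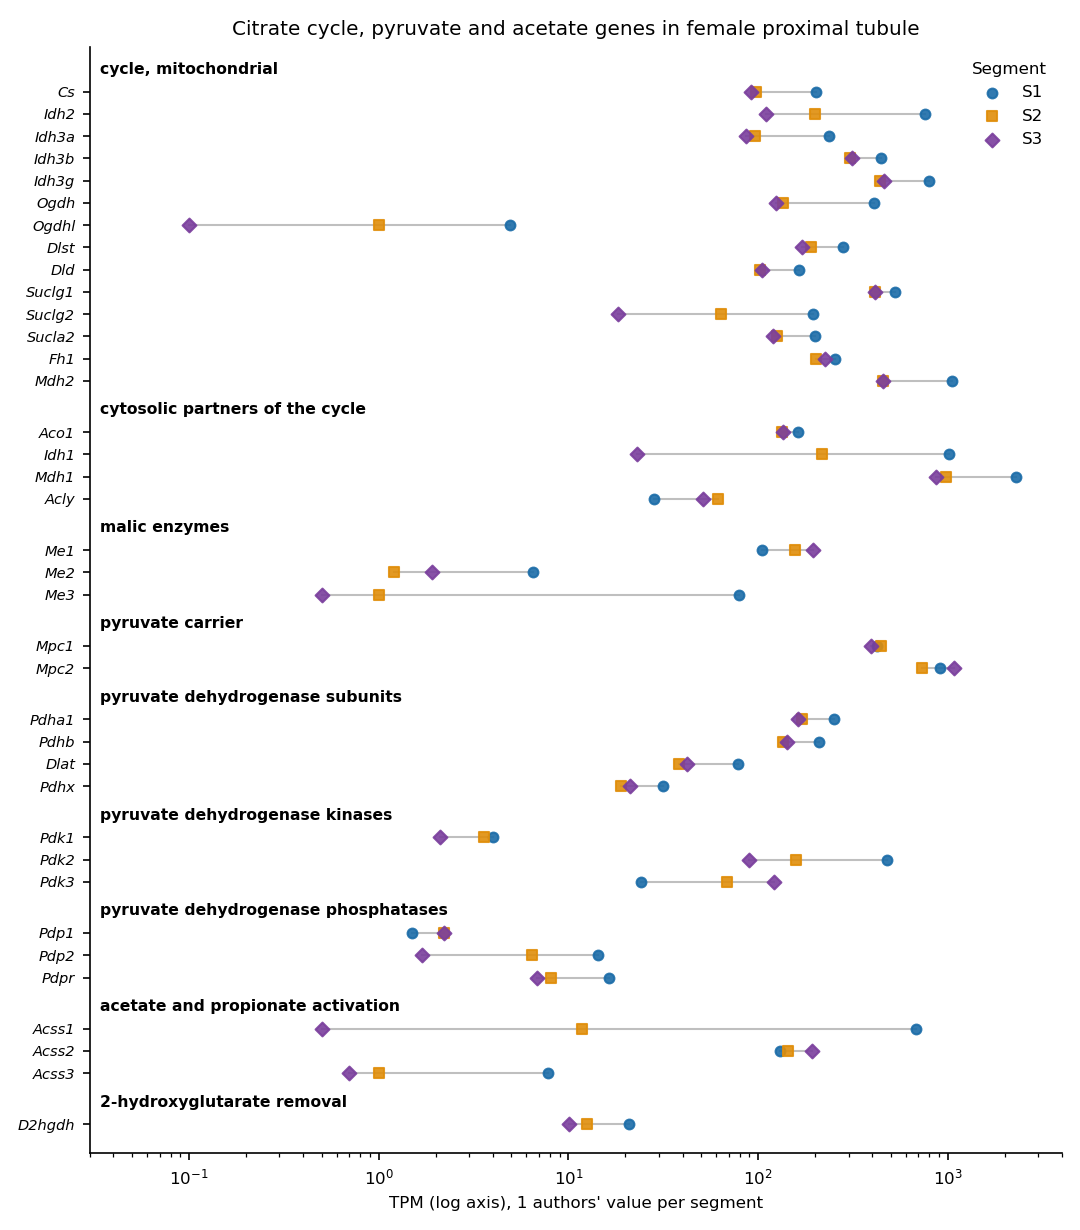
TPM of the 37 genes in S1 (circles), S2 (squares) and S3 (diamonds) of female proximal tubule, on a log axis and grouped by role; each point is the authors' 1 value per segment and grey lines join the lowest and highest. S1 lies to the right for most genes, by the widest margins for Acss1 (682 TPM in S1 and 0.5 TPM in S3) and Me3 (79.6 and 0.5 TPM), while Pdk3, Me1 and Acss2 run the other way.

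Set against S2, S1 had 16 of the 37 genes at least 2-fold higher, where 6.62% of all genes compared were, and 2 lower, Acly and Pdk3, where 17.7% of all genes were. The median difference of log2(TPM + 1) was 0.70 for the 37 genes and -0.18 for all genes. Set against S3, S1 again had 16 genes higher (10.5% of all genes) and 1 lower, Pdk3 (13.1% of all genes), with a median of 0.78 against -0.01 for all genes. Between S2 and S3 the levels lay closer. The 4 genes Suclg2, Idh1, Pdp2 and Acss1 passed 2-fold with S2 above S3 (8.74% of all genes) and 0 with S2 below S3 (2.24% of all genes), with a median of 0.09 against 0.12. Among genes of at least 10 TPM in a segment, 32 of the 37 are found, and S1 was above S2 by 2-fold in 13 of them (8.71% of all genes at that level) and below it in 2 (13.9%). Against S3 the counts were 13 (12.8%) and 1 (14.7%), and for S2 against S3 they were 4 (6.49%) and 0 (1.88%). With a threshold of 1.5-fold, S1 exceeded S2 in 23 genes (13.9% of all genes) and was under it in 2 (33%). It exceeded S3 in 24 (19.5%) and was under it in 3 (22.5%), and S2 exceeded S3 in 7 (20.4%) and was under it in 1 (5.6%). Quantile normalization moved the median of all genes by 0.25 for S1 minus S2 and by -0.17 for S2 minus S3. Among all calls, higher genes then made up 46.8% for S1 against S2, where TPM as deposited gave 27.2%, and 61.6% for S2 against S3, where it gave 79.6%. Under it 15 of the enzymes were higher and 2 lower for S1 against S2, with a median 0.66 above that of all genes, against 0.88 above it on TPM as deposited. With Kap, Gpx3 and the mitochondrially encoded genes left out, 13 of the enzymes were higher and 2 lower for S1 against S2. The median of the 37 genes was then 0.88 above that of all genes. Scaling factors taken from all genes above 0, many of which are close to 0, moved the median of all genes by 0.57 for S1 minus S2 and gave 29 higher and 0 lower, with higher genes at 69.1% of all calls. For S2 against S3 they moved it by -0.42 and put higher genes at 43.0% of all calls.

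**Figure D2:**
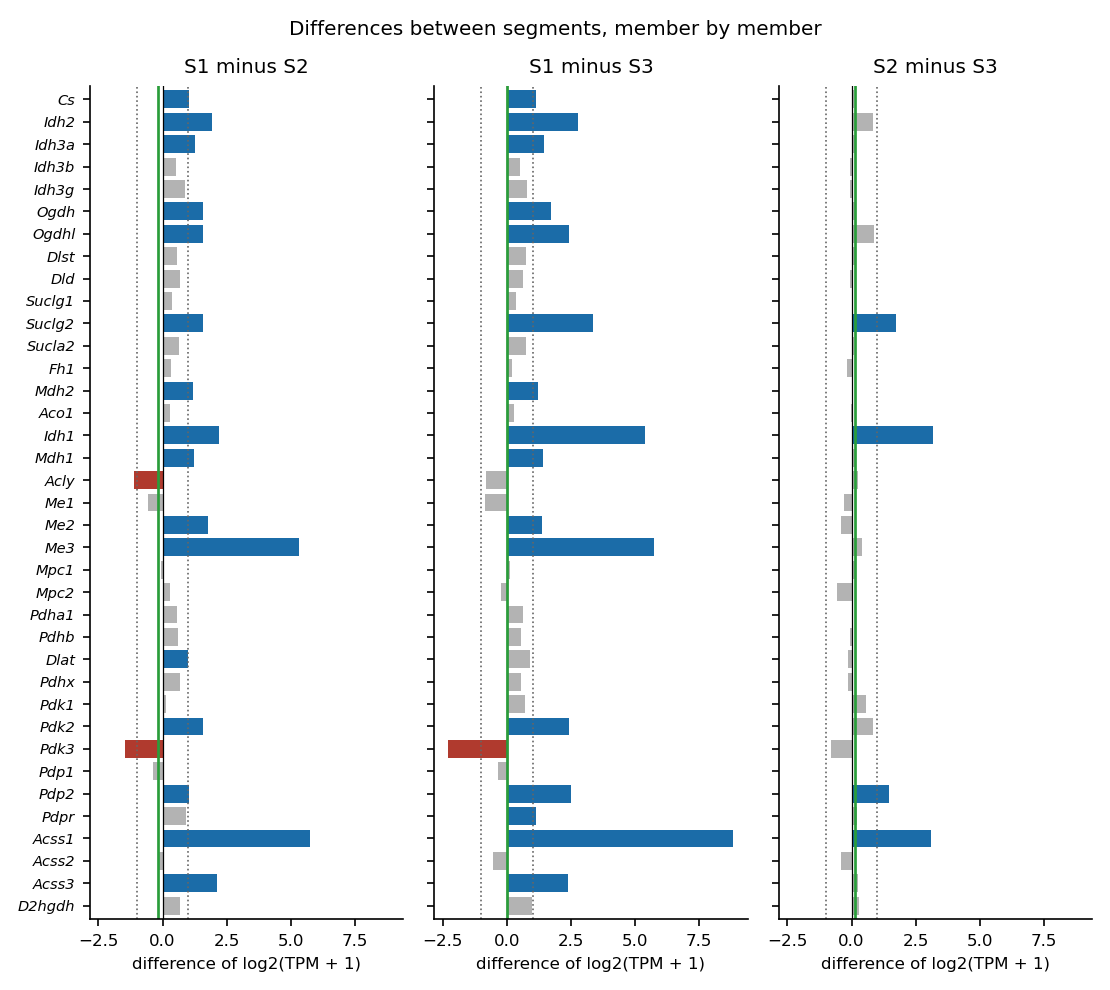
Difference of log2(TPM + 1) for each of the 37 genes in S1 minus S2, S1 minus S3 and S2 minus S3; blue bars are at least 1, red bars at most -1, grey bars between, dotted lines mark 1 and -1, and the green line is the median of all genes compared. There are 16 blue bars in each of the panels with S1 and 4 in S2 minus S3.

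Of the 14 mitochondrial cycle genes among the 37, 7 were higher in S1 than in either later segment, passing 2-fold in both contrasts. Of all genes compared, 6.62% passed it against S2 and 10.5% against S3. The differences of all 14 were above 0 against S2 and against S3, with medians of 0.95 and 0.96. Among all 16053 genes compared, 6423 were above 0 against S2 and 7316 against S3. Cs, citrate synthase, which joins acetyl-CoA to oxaloacetate, was at 202 TPM in S1, 97.4 TPM in S2 and 91.6 TPM in S3. Its S1 value was 2.08-fold that of S2, close to the threshold, and its difference was 0.94 once Kap, Gpx3 and the mitochondrially encoded genes were left out. Ogdh, the oxoglutarate-decarboxylating subunit of the 2-oxoglutarate dehydrogenase complex, was at 410 TPM in S1, 136 TPM in S2 and 124 TPM in S3. Mdh2, the mitochondrial malate dehydrogenase that closes the cycle, was at 1047 TPM in S1, 455 TPM in S2 and 453 TPM in S3. In these 3 genes S1 stood apart, and S2 and S3 were nearly level. Ogdhl, a relative of Ogdh, was scarce at 4.9 TPM in S1, 1.0 TPM in S2 and 0.1 TPM in S3.

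The isocitrate dehydrogenase genes differed in how far S1 stood above the later segments. Idh3a, the catalytic subunit of the NAD-linked enzyme, was at 237 TPM in S1, 96.8 TPM in S2 and 86.0 TPM in S3. Its partner subunits differed less than 2-fold. Idh3b was at 443 TPM in S1, 304.5 TPM in S2 and 314 TPM in S3, and Idh3g at 796, 439 and 462 TPM. The ratio of Idh3b to Idh3a was therefore 1.87 (S1), 3.15 (S2) and 3.66 (S3). Idh2, the NADP-linked enzyme of mitochondria, was at 761.5 TPM in S1, 199 TPM in S2 and 110.5 TPM in S3. Idh1, its cytosolic counterpart and a source of NADPH, had the steeper slope: 1014 TPM in S1, 217.5 TPM in S2 and 23.1 TPM in S3. It maps to 65158616 to 65186479 of chromosome 1 (GRCm38.p6, the assembly also called mm10). The S1 level was 4.66-fold that of S2 and 43.9-fold that of S3, and the S2 level 9.42-fold that of S3. Both NADP-linked genes together summed to 1776 TPM in S1, 417 TPM in S2 and 134 TPM in S3. The cytosolic gene made up 57.1%, 52.2% and 17.3% of that sum.

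Succinyl-CoA ligase, the step of the cycle that makes a nucleoside triphosphate directly, pairs a shared alpha subunit with either a GTP-forming or an ATP-forming beta subunit. The alpha subunit gene Suclg1 was nearly even, at 530 TPM in S1, 413.5 TPM in S2 and 413 TPM in S3. Suclg2, the GTP-forming beta subunit (chromosome 6, 95473009 to 95718858), was at 195 TPM in S1, 63.7 TPM in S2 and 18.3 TPM in S3. Sucla2, the ATP-forming one, was at 200 TPM in S1, 126.5 TPM in S2 and 119 TPM in S3. The ratio of Suclg2 to Sucla2 was 0.974, 0.504 and 0.153 along the segments, so the beta subunits were level in S1 and Sucla2 led in S3.

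The other mitochondrial cycle genes among the 37 differed less than 2-fold. Dlst, the succinyl-transferring core of the oxoglutarate complex, was at 281.5 TPM in S1, 190.5 TPM in S2 and 170 TPM in S3. Dld, the lipoamide dehydrogenase that this complex shares with pyruvate dehydrogenase, was at 165, 102 and 105 TPM. Fh1, fumarase, had the smallest difference of these 14 genes against S3, at 254 TPM in S1, 201 TPM in S2 and 225 TPM in S3. Since Ogdh in S1 was 3.02-fold its S2 level and Dlst 1.48-fold, the ratio of Ogdh to Dlst was 1.46 for S1, 0.711 for S2 and 0.732 for S3. D2hgdh, which oxidises D-2-hydroxyglutarate back to 2-oxoglutarate, was at 20.9, 12.5 and 10.1 TPM. Its difference for S1 minus S3 was 0.98, just short of the threshold, and 1.04 with a pseudocount of 0.1.

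Outside the mitochondrion, Mdh1, the cytosolic malate dehydrogenase of the malate-aspartate shuttle, was the most abundant of the 37 genes in S1 and S2. It was at 2282 TPM in S1, 983 TPM in S2 and 868 TPM in S3. The ratio of Mdh1 to Mdh2 was 2.18 (S1), 2.16 (S2) and 1.92 (S3), so the cytosolic and mitochondrial genes kept pace. Under quantile normalization the difference of Mdh1 for S1 minus S2 was 0.89 in place of 1.21. Aco1, the cytosolic aconitase that doubles as an iron-sensing RNA-binding protein, was at 163, 134 and 136 TPM. Acly, ATP citrate lyase, which splits exported citrate into acetyl-CoA for lipid synthesis, was the only one of these 4 cytosolic partners that was lower in S1. It was at 28.3 TPM in S1, 61.6 TPM in S2 and 51.4 TPM in S3, so that the ratio of Cs to Acly was 7.15, 1.58 and 1.78. Its difference for S1 minus S2 was -1.10, and -0.40 with scaling factors from all genes above 0.

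The 3 malic enzymes, which turn malate into pyruvate, had a similar sum in each segment and a different make-up. Together they stood at 191 TPM in S1, 158 TPM in S2 and 196 TPM in S3. Me3, an NADP-linked enzyme of mitochondria (chromosome 7, 89632284 to 89854359), was at 79.6 TPM in S1, 1.0 TPM in S2 and 0.5 TPM in S3. Its difference for S1 minus S2 ranked 15 among the 16053 genes. Me1, the cytosolic NADP-linked enzyme, was at 105 TPM in S1, 156 TPM in S2 and 194 TPM in S3, less than 2-fold apart. Me3 made up 41.7% of the malic enzyme sum in S1, 0.631% in S2 and 0.255% in S3; Me1 made up 54.9%, 98.6% and 98.8%. Me2, the NAD-linked enzyme of mitochondria, was at 6.5, 1.2 and 1.9 TPM.

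The 3 short-chain acyl-CoA synthetases had a mitochondrial gene in the lead in S1 and a cytosolic one in S2 and S3, with a lower sum there. Acss1, the mitochondrial acetyl-CoA synthetase (chromosome 2, 150618111 to 150668240), was at 682 TPM in S1, 11.8 TPM in S2 and 0.5 TPM in S3. Its difference ranked 8 of 16053 genes for S1 minus S2 and 9 for S1 minus S3. The gene E130215H24Rik, whose span overlaps it, was at 7.4 TPM in S1, 0.2 TPM in S2 and listed at 0 in S3. The kit is not stated to mark strand, so reads of the overlapping genes cannot be told apart. Acss2, the enzyme of cytosol and nucleus, was at 130 TPM in S1, 144 TPM in S2 and 192 TPM in S3. The ratio of Acss2 to Acss1 was 0.190, 12.2 and 384 along the segments; the last rests on an Acss1 value given to 1 decimal. Acss3, a mitochondrial enzyme that prefers propionate, was at 7.8, 1.0 and 0.7 TPM. The sum of the 3 was 820 TPM in S1, 157 TPM in S2 and 193 TPM in S3.

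**Figure D3:**
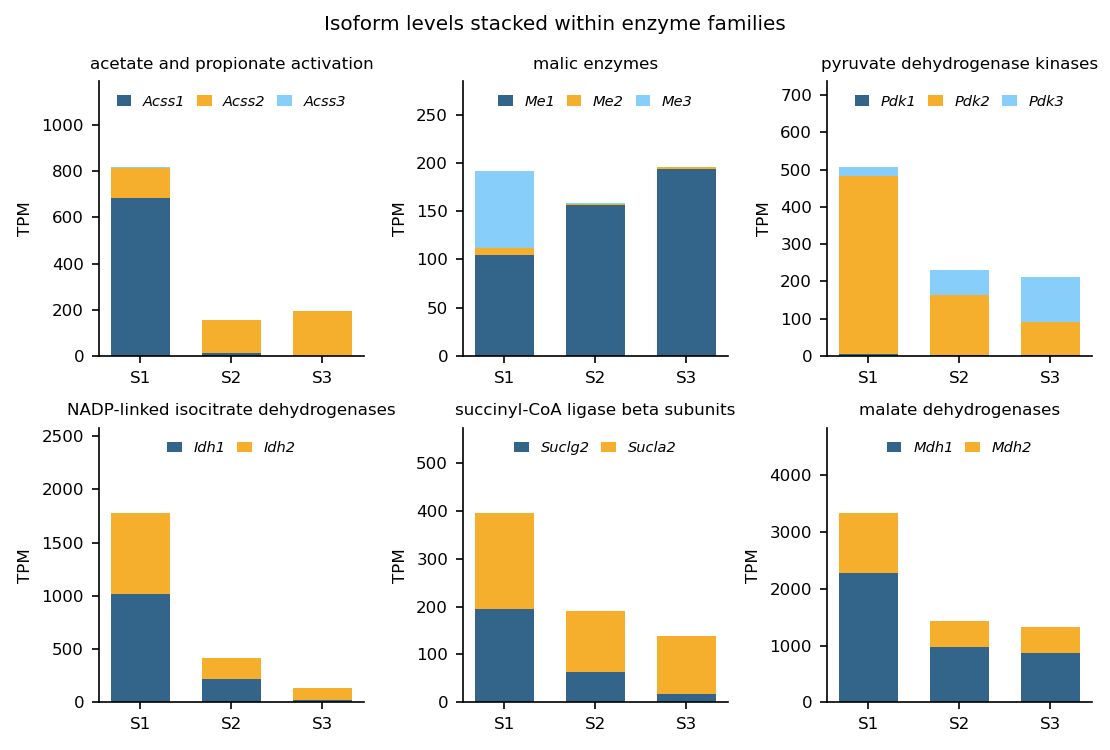
TPM of the genes of 6 enzyme families stacked by segment, with bars starting at 0 and 1 authors' value per gene and segment. Acss1 and Me3 are visible in S1 and nearly gone in S2 and S3, Pdk3 exceeds Pdk2 in S3, and Mdh1 and Mdh2 keep their proportion while their sum is 3329 TPM in S1, 1438 TPM in S2 and 1321 TPM in S3.

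In pyruvate supply, the carrier genes stayed within 2-fold, while the 4 pyruvate dehydrogenase subunits all had differences above 0 for S1 against both later segments. Differences above 0 were found in 6423 of all 16053 genes against S2 and in 7316 against S3. Mpc1 and Mpc2, the subunits of the mitochondrial pyruvate carrier, differed less than 2-fold in every contrast. Mpc1 was at 425 TPM in S1, 446 TPM in S2 and 395 TPM in S3, and Mpc2 at 904, 731.5 and 1078.5 TPM; Mpc2 had the highest level of any of the 37 genes in S3. The pseudogene Mpc1-ps was listed at 276.5, 252 and 238 TPM, so reads of Mpc1 may be split with this copy and its level is uncertain. Of the 4 subunits of pyruvate dehydrogenase itself, S1 exceeded S2 by 2-fold in 1 (6.62% of all genes) and S3 in 0 (10.5%). Their median difference for S1 was 0.66 against S2 and 0.59 against S3. Pdha1, the regulated E1 alpha subunit, was at 251 TPM in S1, 170 TPM in S2 and 162 TPM in S3, and Pdhb, its beta partner, at 209, 136 and 142 TPM. Their ratio held at 1.20, 1.25 and 1.14. Dlat, the acetyl-transferring core, was at 78.3 TPM in S1, 38.5 TPM in S2 and 42.0 TPM in S3, which passed 2-fold against S2 with a difference of 1.01 and missed it with quantile normalization, at 0.99, and with Kap, Gpx3 and the mitochondrially encoded genes left out, at 0.91. Pdhx, which anchors the lipoamide dehydrogenase, was at 31.5, 19.0 and 21.2 TPM.

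Among the kinases that regulate the complex, Pdk2 and Pdk3 differed between segments by wider margins than its subunits did. Pdk2 (chromosome 11, 95026258 to 95041371) and Pdk3 (chromosome X, 93764616 to 93832150) are kinases that inactivate it by phosphorylating Pdha1. Pdk2 was at 480 TPM in S1, 159 TPM in S2 and 89.2 TPM in S3. Pdk3 was at 24.2 TPM in S1, 68.9 TPM in S2 and 122 TPM in S3, the reverse order. The ratio of Pdk2 to Pdk3 was 19.8, 2.31 and 0.732 along the segments, so Pdk3 was above Pdk2 in S3 alone. This ratio does not depend on a factor applied to a whole column, whereas the difference of Pdk3 for S1 minus S2, -1.47, was -0.78 with scaling factors from all genes above 0. Pdk1 was scarce, at 4.0, 3.6 and 2.1 TPM. The 3 kinases summed to 508 TPM in S1, 232 TPM in S2 and 213 TPM in S3.

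The phosphatases that reverse the kinases were low throughout and summed to 32.1 TPM in S1, 16.7 TPM in S2 and 10.7 TPM in S3. Pdp2, a catalytic subunit, was at 14.3 TPM in S1, 6.4 TPM in S2 and 1.7 TPM in S3, its S1 level 8.41-fold that of S3. The other catalytic subunit, Pdp1, was at 1.5, 2.2 and 2.2 TPM. Pdpr, the regulatory subunit, was at 16.3, 8.1 and 6.8 TPM, with a difference of 0.93 for S1 minus S2 and 1.15 for S1 minus S3. The difference of Pdp2 for S1 minus S2 was 1.05, and 0.97 with Kap, Gpx3 and the mitochondrially encoded genes left out.

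**Figure D4:**
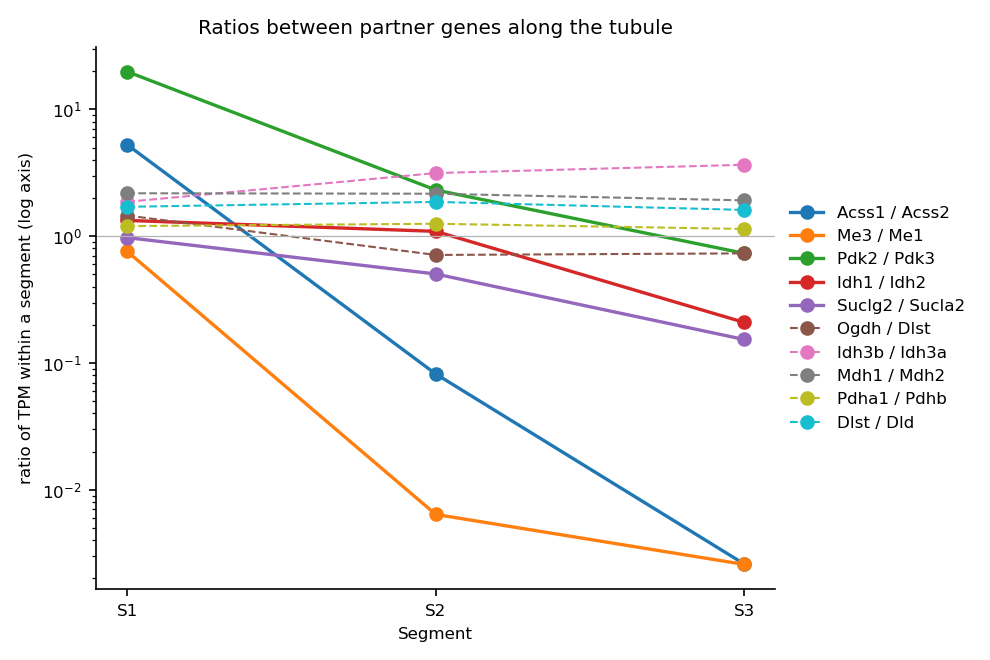
Ratio of the TPM of partner genes within each segment, on a log axis; solid lines are isoform pairs whose ratio differed over 6-fold between its highest and lowest segment, dashed lines are other pairs. The ratio of Acss1 to Acss2 is 5.26 for S1, 0.0820 for S2 and 0.00260 for S3, while that of Mdh1 to Mdh2 stays between 1.92 and 2.18.

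Genes that differed between the ends of the tubule took different courses through S2. Of the 17 genes at least 2-fold apart between S1 and S3, 9 (52.9%) had an S2 position under 0.25 on a log2 scale that sets S3 at 0 and S1 at 1. Over all 3789 such genes the share was 52.4%, close to that of the list. Mdh2 (0.00), Ogdh (0.07), Me3 (0.07), Cs (0.08) and Idh3a (0.12) were among those with S2 close to S3. Idh1 (0.59), Pdp2 (0.58) and Suclg2 (0.52) had S2 nearer S1 and were at least 2-fold apart at both steps. A position of at least 0.5 was held by these 3 of the 17 genes and by 788 of all 3789.

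Upstream sequence is shown for the pairs whose TPM stood in opposite orders along the segments, since their promoters can be read side by side. Both members of the Pdk pair passed 2-fold, while Acss2 and Me1 did not in any contrast. Each is the 250 bases before a RefSeq transcript start (GRCm38.p6), 5′ to 3′ on the gene's strand, with capitals for matches to the motifs searched. The windows are Acss2 at chr2:155517793-155518042 and Me3 at chr7:89632568-89632817 on the plus strand, and Acss1 at chr2:150668241-150668490, Me1 at chr9:86695915-86696164, Pdk2 at chr11:95041372-95041621 and Pdk3 at chrX:93832151-93832400 on the minus strand. Matches on the opposite strand read as the reverse complement, CCGCCC or ATTGG.
Acss1: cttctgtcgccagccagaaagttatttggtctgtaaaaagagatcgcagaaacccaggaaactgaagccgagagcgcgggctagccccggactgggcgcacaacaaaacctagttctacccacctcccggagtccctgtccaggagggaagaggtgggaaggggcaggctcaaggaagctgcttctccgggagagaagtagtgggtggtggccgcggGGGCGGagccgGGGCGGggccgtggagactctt
Acss2: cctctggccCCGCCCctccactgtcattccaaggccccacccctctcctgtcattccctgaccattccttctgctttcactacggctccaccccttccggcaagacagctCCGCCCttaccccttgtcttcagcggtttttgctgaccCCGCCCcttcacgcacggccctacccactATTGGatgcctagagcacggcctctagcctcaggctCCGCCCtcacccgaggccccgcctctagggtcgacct
Me3: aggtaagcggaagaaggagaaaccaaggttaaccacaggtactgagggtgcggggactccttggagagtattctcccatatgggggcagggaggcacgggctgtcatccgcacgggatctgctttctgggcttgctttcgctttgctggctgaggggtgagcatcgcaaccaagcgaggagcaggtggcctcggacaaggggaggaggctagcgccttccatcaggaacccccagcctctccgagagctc
Me1: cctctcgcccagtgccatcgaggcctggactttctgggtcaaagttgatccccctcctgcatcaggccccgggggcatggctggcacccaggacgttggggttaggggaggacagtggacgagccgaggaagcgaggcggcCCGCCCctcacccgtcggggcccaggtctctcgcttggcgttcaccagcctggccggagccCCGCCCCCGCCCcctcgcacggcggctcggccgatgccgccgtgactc
Pdk2: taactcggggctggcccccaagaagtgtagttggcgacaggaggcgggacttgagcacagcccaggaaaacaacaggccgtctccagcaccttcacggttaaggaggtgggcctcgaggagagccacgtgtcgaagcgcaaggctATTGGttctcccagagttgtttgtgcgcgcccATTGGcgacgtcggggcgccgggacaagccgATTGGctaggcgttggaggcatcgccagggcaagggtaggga
Pdk3: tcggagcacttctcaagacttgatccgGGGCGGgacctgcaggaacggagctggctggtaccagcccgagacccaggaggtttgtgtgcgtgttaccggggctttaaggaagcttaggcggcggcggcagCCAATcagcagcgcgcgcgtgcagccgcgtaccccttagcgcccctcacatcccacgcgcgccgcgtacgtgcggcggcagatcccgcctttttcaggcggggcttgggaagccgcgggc

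On both strands, 7 motifs were searched: GGGCGG (bound by SP1), CCAAT (NF-Y), AAGGTCA (estrogen-related receptors), the NRF1 motif, TCACNCCAC (a sterol element), CAAAGTCCA (a core bound by HNF4A) and the HNF1 motif. In the printed windows no 2 matches overlapped. Acss1 held GGGCGG 2 times, Acss2 4 times, Me1 3 times and Pdk3 1 time; the Me3 and Pdk2 windows held none. CCAAT was found 3 times in Pdk2, 1 time in Acss2 and 1 time in Pdk3. Me1 and Pdk2 each have another annotated start, whose window is not printed. That of Me1 held CCAAT 1 time and no GGGCGG, and that of Pdk2 held no match. The Me3 window lies inside the span given above for that gene, which begins at 89632284. Bases before the Me3 span were not searched. A window was on hand for 33 of the 37 genes, 43 windows in all. GGGCGG was in 67.4% of these windows, against 32.7% of all 32851 windows and 42.6% of the 21263 windows of protein-coding genes. CCAAT was in 46.5%, against 33.8% of all windows and 35.4% of those of protein-coding genes. Some genes give several windows and those of Ogdh overlap in part, so the same match can be counted more than once. The NRF1 motif was in 1 member, Sucla2 (3.74% of all windows), and TCACNCCAC in 1, D2hgdh (1.05%). AAGGTCA (4.08% of all windows), CAAAGTCCA (0.384%) and the HNF1 motif (0.00913%) were in none of the 43, which says only that these letters are not in these stretches.

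The rest of the pathway was read from lists of its neighbours. Of 18 further cycle and pyruvate genes, S1 exceeded S2 by 2-fold in 4 (6.62% of all genes) and was under it in 3 (17.7% of all genes), the median difference being 0.32. It exceeded S3 in 4 (10.5%) and was under it in 4 (13.1%), the median being 0.44. Succinate dehydrogenase was uneven by subunit: Sdha was at 841.5 TPM in S1, 342 TPM in S2 and 277 TPM in S3, and Sdhb at 1093, 872 and 1095 TPM. Pcx, pyruvate carboxylase, which fills the cycle from pyruvate, was at 282 TPM in S1, 99.4 TPM in S2 and 66.6 TPM in S3. Pdk4, the kinase induced by fasting, ran with Pdk3, at 1.4 TPM in S1, 12.4 TPM in S2 and 18.5 TPM in S3. The lactate dehydrogenase subunit Ldhb was at 2824, 837 and 357 TPM, and Pkm, the muscle-type pyruvate kinase, at 1.9, 50.1 and 75.9 TPM.

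Of 11 carriers of these fuels, both mitochondrial and of the plasma membrane, 10 reached 1 TPM, and of these S1 exceeded S2 by 2-fold in 2 (6.62% of all genes) and was under it in 3 (17.7%). All 5 are carriers of the plasma membrane. Slc5a12 and Slc16a1, which carry lactate and other monocarboxylates, were at 376 and 32.4 TPM in S1, 0.4 and 3.3 TPM in S2, and 0.1 and 0.2 TPM in S3. Slc5a8, another sodium-coupled monocarboxylate transporter, was listed at 0 in S1 and was at 45.7 TPM in S2 and 48.2 TPM in S3. Slc13a2, which takes up citrate and other dicarboxylates from the filtrate, was at 9.6, 115 and 117 TPM, and its basolateral relative Slc13a3 at 2.2, 227 and 1.1 TPM. The mitochondrial carriers were within 2-fold in each contrast, among them the citrate carrier Slc25a1 at 249.5 TPM in S1, 136 TPM in S2 and 174 TPM in S3.

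Among 6 genes that feed the cycle from amino acids and ketones, S1 exceeded S2 by 2-fold in 2 (6.62% of all genes) and was under it in 1 (17.7%), and the counts against S3 were also 2 (10.5%) and 1 (13.1%). Got1, the cytosolic aspartate aminotransferase that works beside Mdh1, was at 150 TPM in S1, 23.2 TPM in S2 and 14.3 TPM in S3, and its mitochondrial partner Got2 at 167, 68.9 and 45.2 TPM. Glud1, glutamate dehydrogenase, was level at 134, 111 and 128.5 TPM. Oxct1, which activates ketone bodies, was at 1109, 919 and 1373 TPM.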

How the data were processed

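Gene expression was measured by RNA-seq in 19 libraries of dissected tubules; a further 24 ATAC-seq samples are not used here. Per the labels' protocols, cDNA was made with a SMARTer ultra-low-input kit and 10 to 12 PCR cycles, tagmented, and sequenced as 50-base read pairs, so PCR copies may remain. Per the submitters' processing notes the build was mm10 and the tools named were STAR, RSEM, Bowtie2, MACS2, Picard, SAMtools and cutadapt, with no roles.

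The authors deposited TPM, rounded to 1 decimal, with 1 value per gene and segment, and nothing states how libraries were combined. TPM keeps no depth, so depth is unknown and no interval or floor was computed. Columns sum to 999907, 999988 and 999911 for S1, S2 and S3. Of 8 value columns, 3 match the female groups; the other 5 match no labelled RNA-seq sample and were not used, so the sexes were not compared.

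Genes with TPM of at least 1 in a segment were compared on log2(TPM + 1), a pseudocount of 1 that understates folds of low genes; plain ratios use the TPM themselves. With 1 value per segment, the planned limma test could not be run and no test was made. Genes and lists were chosen with earlier results of these data known. Every one of the 37 genes is named, and those at least 2-fold apart in a contrast are given in full. Neighbours are named mainly where they reach 10 TPM and differ by at least 2 on the log2 scale. The other neighbours given (Sdha, Sdhb, Slc25a1, Got2, Glud1, Oxct1, Lias, Bckdha, Acot12 and Sirt3) were picked after their values were seen. Alternatives were another pseudocount, other filters, 3 scalings, and a 1.5-fold threshold; a filter of 10 TPM and scaling factors from all genes above 0 were added after seeing the data. Median-of-ratios factors came from 11008 genes of at least 1 TPM in every segment. Some neighbouring genes are counted in their lists but not reported here by name. A planned comparison of protein sequences was not made. Code was tested on simulated data (Python 3.11.15, pandas 2.3.3, NumPy 2.4.6). Coordinates and sequences are from RefSeq, GRCm38.p6, 1-based.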

Additional observations from a re-analysis of the deposited data

How the results depend on the processing

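No paired analysis was possible because the table holds 1 value per segment; leaving out replicates and the replicate block were not run for the same reason. Filters on low values cannot change a gene's own difference. Over the 5 alternatives in pseudocount, scaling or genes left out, 494 of 555 differences of the 37 genes kept their direction and their side of the 2-fold threshold, and 0 differences past the threshold changed sign. Counts for the 37 genes moved by over 1.5 times under 2 alternatives. At a 1.5-fold threshold, S1 was under S3 in 3 genes in place of 1, and S2 was above S3 in 7 in place of 4 and under it in 1 in place of 0. With scaling factors from all genes above 0, added after seeing the data, S1 was above S2 in 29 genes and under it in 0, the median being 1.39, and S2 was under S3 in 2, Mpc2 and Pdk3, with a median of -0.39. Relative to the median of all genes those medians were 1.00 and -0.08, against 0.88 and -0.03 for TPM as deposited. The cause was not tested. That scaling changed the sign of 4 small differences for S1 minus S2 (Me1, Mpc1, Pdp1 and Acss2) and of 14 for S2 minus S3. Quantile normalization changed the sign of 1, Pdp1, for S1 minus S2 and of 7 for S2 minus S3; median-of-ratios scaling changed 2, and leaving out Kap, Gpx3 and the mitochondrially encoded genes 4, all for S2 minus S3. Differences between S2 and S3 were under 2-fold for most of these genes. The unknown depth limits what can be said of genes near 1 TPM.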

Other observations

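Genes around the 2-oxoacid dehydrogenases differed little between S1 and S2. Of 10 genes for lipoate, thiamine and relatives of these enzymes, S1 exceeded S2 by 2-fold in 1 (6.62% of all genes) and was under it in 0 (17.7%), the median difference being -0.17. Lias, which makes the lipoyl group carried by Dlat and Dlst, was at 45.6 TPM in S1, 40.7 TPM in S2 and 43.1 TPM in S3. Bckdhb, the E1 beta subunit of the branched-chain oxoacid dehydrogenase, was at 24.5 TPM in S1, 10.7 TPM in S2 and 0.2 TPM in S3, while its partner Bckdha was at 324, 214.5 and 158 TPM.

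Genes that use or release acetyl-CoA had mixed orders. Of 6, 5 reached 1 TPM, and in 2 of these S1 was under S2 by at least 2-fold (17.7% of all genes). Acot12, which hydrolyses acetyl-CoA to acetate in the cytosol, was at 21.6 TPM in S1, 74.6 TPM in S2 and 67.2 TPM in S3, lowest in the segment where Acss1 was highest. Sirt3, a mitochondrial deacetylase, was level at 162, 157.5 and 137 TPM.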
